A study of Mus musculus with 14 samples.

Results

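Joining an antigen to red blood cells can be done with a whole protein or with the short peptide that a T cell receptor recognises, and the comparison described here asked in which genes that step acted differently on the 2 forms. For each gene, the effect of erythrocyte targeting on the peptide (TER119-SIINFEKL minus SIINFEKL) was subtracted from its effect on the protein (ERY1-OVA minus OVA). The members are the 11 libraries of those 4 antigen groups, chosen by their labels, of 14 libraries in all. The other 3 libraries, named Naive, came from mice given no antigen and served as the resting background.

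All libraries came from OTI cells, CD8+ T cells with a transgenic receptor for the ovalbumin peptide SIINFEKL. Donor cells were labelled with the dye CFSE and given by vein on day 0 to CD45.2+ C57BL/6 recipients, at a stated age of 8 to 12 weeks. On day 1 the recipients of antigen received 223 pmol, an amount that equals 10 µg of ovalbumin. The antigen was soluble ovalbumin (OVA, 3 libraries), ovalbumin joined to ERY1, a short peptide that binds mouse red cells (ERY1-OVA, 3 libraries), SIINFEKL alone (2 libraries) or SIINFEKL carried by TER119, a binder of mouse erythrocytes (TER119-SIINFEKL, 3 libraries). Spleens were taken on day 4, and viable cells positive for CD3e, CD8 and CD45.1 were sorted. ERY1 and TER119 are different binders, so the form of the antigen and the binder that carried it cannot be told apart in this contrast. The 4 groups shared transfer, day and molar amount. Beyond the number per group the labels do not say how libraries relate to animals, so p-values measure the spread between these libraries, which may be technical.

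Aged erythrocytes are cleared by phagocytes of the spleen and liver, and antigen bound to them is taken up and presented on class I molecules by cross-presenting cells. CD8+ T cells that meet antigen in this way are known to divide and then to be lost or to become unresponsive. A free peptide of the right length can instead bind class I molecules at the surface of many cells without being processed, and small peptides leave the circulation quickly. Dividing T cells switch on the E2F genes of S phase, the mitotic genes, glycolysis and ribosome production, and they lower genes of the resting state.

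The values are deposited logarithms of RPKM, a read number scaled to transcript length and to sequencing depth, and base 2 was assumed. The depth of each library is unknown, because no counts were used. Of the variance between libraries, 63.6% lay on a first principal component with scores of -61.3 to -55.9 for Naive and 21.6 to 30.8 for the 9 antigen libraries other than SIINFEKL. The SIINFEKL libraries stood apart, at -11.9 for library 1 and -48.3 for library 2. Their spread was wider, with a root-mean-square SD of 0.416 compared with 0.226 to 0.255 elsewhere. The fit gave all groups 1 shared spread per gene, so errors and p-values can be too narrow where these 2 libraries disagree. Values without one or the other are given for many results but not for all, and their absence does not mark a stable result. Of 8 CD8 T cell markers, whose summed level was 2780 to 4210 RPKM in all 14 libraries, Cd8a (0.43, adjusted p = 0.04 with limma) and Cd8b1 (0.53, adjusted p = 0.021) differed in the contrast. The call of Cd8a was lost in 13 of the alternatives listed for it, among them each fit without an OVA or ERY1-OVA library, and its value was 0.73 with quantile normalization. Of the 5 class II antigen-presentation genes none was called, but their summed level reached 81.2 RPKM in OVA library 1 and 48 in TER119-SIINFEKL library 1. The lowest sums of those 2 groups were 21.7 and 20.0. The sum was 30.5 to 48.5 in Naive and 19.8 to 30.2 in the ERY1-OVA and SIINFEKL libraries. Itgax (-1.92), Hmox1 (-1.79) and Cd22 (-1.76), which are markers of dendritic cells, macrophages and B cells, were called lower, each the 1 called member of its list (1, 3 and 3 tested). Cd22 measured -1.66 to -1.20 in Naive and 1.83 to 3.63 in the antigen libraries. The B cell gene Cd79b measured 3.02 to 3.32 in Naive and 3.02 to 4.14 in the antigen libraries. Which cells expressed Cd22 was not tested. The summed level of the B cell list was 18.7 to 29.3 RPKM over the antigen libraries, that of the macrophage list 7.32 to 18.7, and Itgax alone 0.77 to 3.2. Pecam1, an endothelial marker that T cells also express, was higher (1.29). Their defining companions, such as Ms4a1, Csf1r, Adgre1 and Xcr1, have no row in the table. The part of other cells in the results was not tested. In sorted bulk samples, a smaller fraction of cells expressing a gene and less RNA of it per cell cannot be told apart.

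The effect of targeting differed between protein and peptide in 3694 of 9793 tested genes, 37.7% (limma with Benjamini-Hochberg adjustment, adjusted p under 0.05, two-sided). The difference was above 0 in 1676 genes (17.1%) and below 0 in 2018 (20.6%). The peptide effect taken alone was called in 3664 genes (37.4%), the protein effect in 104 (1.06%). Among the 3694 genes, the peptide effect alone was called in 3090, the protein effect alone in 21, both in opposite directions in 78, both in the same direction in 1 and neither in 504. The peptide effect was the larger of the pair in size in 1893 of the 2018 genes called lower and in 1505 of the 1676 called higher (93.8% and 89.8%), beside 7555 of all 9793 tested genes (77.1%). Over all tested genes the SD of the peptide effect was 0.7 and that of the protein effect 0.29. Genes chosen by the contrast lean to the effect with the wider spread, so these shares are a description.

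The position of the groups relative to Naive describes what the contrast collects. In the 2018 genes called lower, the median log2 distance from the Naive mean was 0.54 to 0.70 in the OVA libraries, 0.34 to 0.38 in ERY1-OVA, 0.50 to 0.56 in TER119-SIINFEKL, and -0.19 and -0.18 in the SIINFEKL libraries. These genes stood above Naive in 3 antigen groups and slightly below it after free peptide. In the 1676 genes called higher the same medians were -0.56 to -0.47 after OVA, -0.28 to -0.22 after ERY1-OVA, -0.57 to -0.39 after TER119-SIINFEKL, and 0.23 and 0.15 after SIINFEKL. Along both sets, ERY1-OVA therefore lay closer to Naive than OVA did, and TER119-SIINFEKL lay farther from Naive than SIINFEKL did. The contrast chose these genes, so the medians are a description. The protein effect was below 0 in 1920 of the 2018 genes and above 0 in 1587 of the 1676. Over all 9793 tested genes it was below 0 in 4879 and above 0 in 4914. The protein effect is part of the contrast that chose these genes, so its signs there are a description too. Both SIINFEKL libraries lay below the 9 other antigen libraries in 1956 of all tested genes (20%), of which 1571 are among those called lower, and above them in 1666 (17%), of which 1186 are among those called higher.

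**Figure D1:**
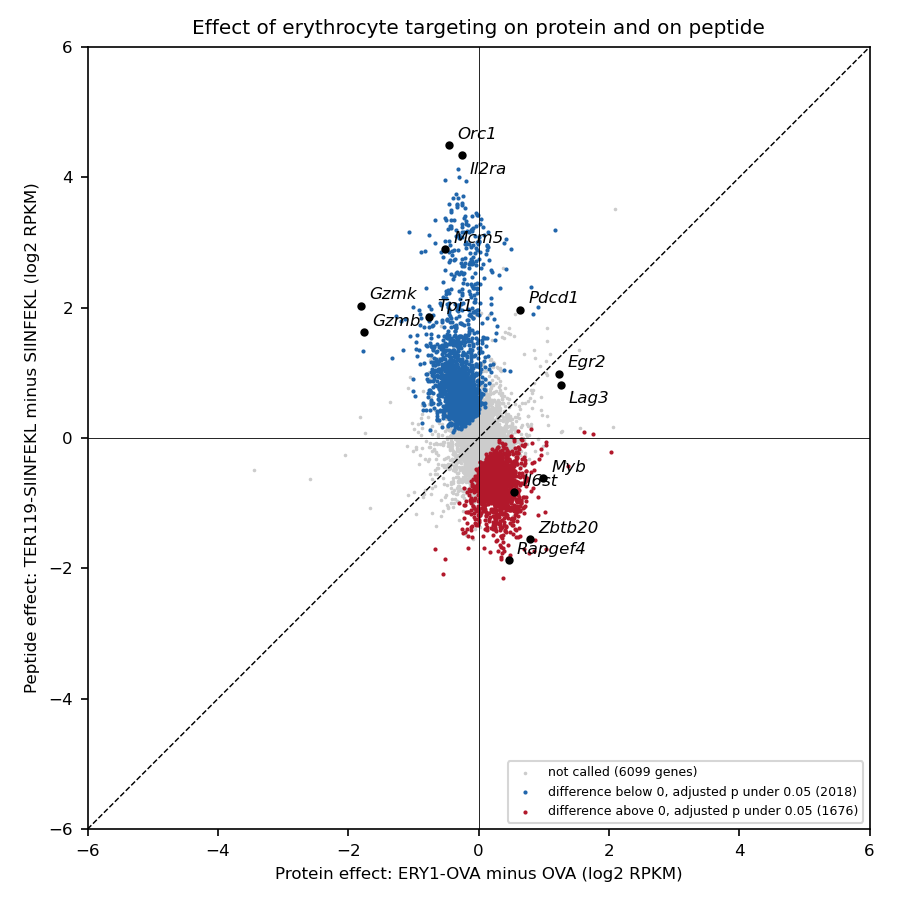
Each point is a gene; the horizontal axis is the effect of targeting on the protein and the vertical axis its effect on the peptide, both in log2 RPKM, with genes called in the difference in blue (below 0, 2018 genes) and red (above 0, 1676 genes) and the dashed line marking equal effects. The cloud is drawn out along the vertical axis: the peptide effect was called in 3664 genes and the protein effect in 104.

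Genes of DNA replication were called lower almost without exception. Of 58 tested genes of S phase and DNA replication, 57 were called lower and none higher, 98.3% beside 20.6% of all genes called lower. Their median difference was -2.69 against 0.02 over all genes. The median protein effect was -0.38 and the median peptide effect 2.31. Mcm5, a subunit of the replicative helicase (ENSMUSG00000005410, GRCm38 chr8:75109569-75128439), measured 7.06, 7.15 and 7.24 log2 RPKM after OVA, 6.71, 6.50 and 6.71 after ERY1-OVA, 4.23 and 3.57 after SIINFEKL, and 6.60, 6.85 and 6.95 after TER119-SIINFEKL. The SIINFEKL libraries lay near the Naive libraries (4.13, 4.34 and 4.17), the ERY1-OVA values lay below all OVA values, and those of TER119-SIINFEKL overlapped ERY1-OVA. Its difference was -3.41 ± 0.23 (SE, adjusted p = 1.8e-06), made of a protein effect of -0.51 (adjusted p = 0.1) and a peptide effect of 2.90 (adjusted p = 6e-07).

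Orc1, the subunit of the origin recognition complex that loads the helicase, had a difference of -4.95 ± 0.53 (adjusted p = 3e-05). It measured 3.19, 2.42 and 2.90 after OVA, 2.20, 2.32 and 2.64 after ERY1-OVA, -1.18 and -2.99 after SIINFEKL, and 2.38, 2.30 and 2.55 after TER119-SIINFEKL. The SIINFEKL values lay on either side of the Naive values (-1.92, -1.58 and -2.04), and those of OVA and ERY1-OVA overlapped. With a pseudocount of 1 RPKM, which damps low values, the difference was -2.70. Ung, the uracil glycosylase that clears uracil from new DNA, had the same adjusted p as Mcm5 (-2.94 ± 0.19). After SIINFEKL it measured 1.79 and 2.34, below its Naive values of 3.39 to 3.49. Mcm7 (-2.83 ± 0.20) and the clamp loader subunit Rfc5 (-2.30 ± 0.17) followed in order of adjusted p.

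Other genes of replication and repair were among the lowest values. Mcm10, which joins the helicase to polymerase, differed by -4.47 ± 0.73, and Gins1 and Gins2 of the same machinery by -4.07 and -4.04. The SD of Mcm10 was 2.02 between the SIINFEKL libraries and 0.17 to 0.31 in the other groups. Its error, which comes from the shared spread, may be too small. Without SIINFEKL library 1 and without library 2, Mcm10 was -5.90 and -3.04, and Gins1 -4.96 and -3.19. Chek1, the replication checkpoint kinase, differed by -4.14 ± 0.62, and Mybl2, the B-Myb factor of late S phase, by -4.01 ± 0.59. Chek1 was -5.36 without SIINFEKL library 1 and -2.92 without library 2, and Mybl2 was -4.97 and -3.05. The recombination genes Fignl1 (-4.31) and Rad54l (-4.10) were -2.70 and -2.73 without SIINFEKL library 2, and each was still called there. Gins2 was -2.60 with the pseudocount of 1. Nasp, a histone chaperone, was -2.24 ± 0.17, and Tuba1b, an alpha-tubulin, -2.53 ± 0.17. Reads of Tuba1b may be shared with near-identical tubulin genes, so its value is uncertain.

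Mitosis showed the same direction with more spread. Of 47 tested genes of G2/M and mitosis, 44 were called lower and none higher, 93.6% beside 20.6% of all genes called lower. The median difference was -3.01. Here the protein effect had a median of -0.10 and was called in none of the 47, beside 1.06% of all genes. The peptide effect had a median of 2.77 and was called in 46, beside 37.4% of all genes. Cdc20, an activator of the anaphase-promoting complex, measured 6.05, 6.06 and 6.15 after OVA, 5.97, 5.73 and 5.78 after ERY1-OVA, 3.84 and 2.01 after SIINFEKL, and 5.49, 5.83 and 5.71 after TER119-SIINFEKL. SIINFEKL library 2 was at the Naive level of 1.68 to 2.12, and library 1 lay between Naive and the other antigen groups. Its difference was -3.01 ± 0.47 (adjusted p = 0.00037), with -3.92 without SIINFEKL library 1 and -2.09 without library 2. Ccnb1, the mitotic cyclin B1 (-3.11 ± 0.49), the condensin subunit Ncaph (-2.90 ± 0.43) and the kinesin Kif20a (-3.40 ± 0.55) likewise had SIINFEKL library 2 as their lowest antigen library and library 1 as the next. Without SIINFEKL library 1 and without library 2, Ccnb1 was -4.06 and -2.17, Ncaph -3.48 and -2.31, and Kif20a -4.42 and -2.37.

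The SIINFEKL libraries disagreed most in this group. The median difference of the G2/M list was -4.23 without SIINFEKL library 1 and -1.78 without library 2, and 46 and 39 members were called lower. For S phase the medians were -2.91 and -2.16. Mki67, the proliferation antigen Ki-67, measured 4.40 and 1.53 after SIINFEKL, 5.44 to 6.16 after OVA, 5.68 to 6.51 after ERY1-OVA and 4.87 to 6.23 after TER119-SIINFEKL. Its difference of -2.57 ± 0.83 (adjusted p = 0.026) became -4.00 without SIINFEKL library 1 and -1.13 without library 2. The call was lost without SIINFEKL library 2 and without any 1 of 5 other libraries, namely OVA 3, ERY1-OVA 2 and 3, and TER119-SIINFEKL 2 and 3.

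Promoter sequence is shown for these lists because their members moved together. The windows are the 250 bases before each RefSeq start (GRCm38.p6), 5′ to 3′ on the gene's strand. Capitals mark 4 motifs on either strand: the CCAAT box, the CHR element TTTGAA, and the E2F sites TTTCCCGC and TTTGGCGC. The Mcm genes are the called members with the smallest adjusted p that hold at least 2 kinds of motif in the window of 250 bases before to 50 after the start. Cdc20 and Ccnf, the cyclin F gene, are the G2/M members with the smallest adjusted p that hold both CCAAT and CHR, a choice made after the values were seen.
Mcm5 (chr8:75109259-75109508, + strand): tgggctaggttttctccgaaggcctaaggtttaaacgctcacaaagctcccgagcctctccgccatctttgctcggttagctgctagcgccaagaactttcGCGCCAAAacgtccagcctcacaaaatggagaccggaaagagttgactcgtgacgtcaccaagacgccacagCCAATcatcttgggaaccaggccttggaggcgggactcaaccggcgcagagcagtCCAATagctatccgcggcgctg
Mcm7 (chr5:138171884-138172133, - strand): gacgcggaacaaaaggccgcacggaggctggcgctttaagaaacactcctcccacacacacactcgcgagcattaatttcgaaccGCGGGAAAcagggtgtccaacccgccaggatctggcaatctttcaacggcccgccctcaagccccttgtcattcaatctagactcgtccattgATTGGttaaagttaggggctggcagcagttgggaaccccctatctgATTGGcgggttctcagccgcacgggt
Mcm3 (chr1:20820313-20820562, - strand): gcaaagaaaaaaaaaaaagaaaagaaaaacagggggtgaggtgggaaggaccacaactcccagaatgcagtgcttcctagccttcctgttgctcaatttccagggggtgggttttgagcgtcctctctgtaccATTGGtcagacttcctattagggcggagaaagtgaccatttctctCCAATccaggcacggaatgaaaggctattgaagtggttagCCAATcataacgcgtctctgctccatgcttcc
Mcm2 (chr6:88898781-88899030, - strand): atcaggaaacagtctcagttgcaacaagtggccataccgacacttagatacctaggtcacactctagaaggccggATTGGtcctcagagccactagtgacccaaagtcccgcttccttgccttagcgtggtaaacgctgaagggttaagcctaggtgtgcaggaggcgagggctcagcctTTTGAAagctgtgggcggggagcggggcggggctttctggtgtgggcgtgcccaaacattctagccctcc
Cdc20 (chr4:118437344-118437593, - strand): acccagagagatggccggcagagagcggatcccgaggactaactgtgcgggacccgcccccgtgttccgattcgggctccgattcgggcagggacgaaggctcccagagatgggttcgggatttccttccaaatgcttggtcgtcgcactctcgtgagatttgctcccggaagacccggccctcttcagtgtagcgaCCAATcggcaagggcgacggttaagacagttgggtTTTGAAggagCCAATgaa
Ccnf (chr17:24251410-24251659, - strand): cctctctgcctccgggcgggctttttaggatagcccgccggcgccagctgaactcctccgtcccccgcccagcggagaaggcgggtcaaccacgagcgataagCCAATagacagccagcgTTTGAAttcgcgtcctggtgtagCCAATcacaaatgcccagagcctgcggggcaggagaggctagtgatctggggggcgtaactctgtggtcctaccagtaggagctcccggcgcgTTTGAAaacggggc

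Across the lists, CCAAT stood in 74.4% and CHR in 74.4% of 43 windows of G2/M genes, and an E2F site in 4.65%. In 55 windows of S-phase genes the shares were 58.2%, 14.5% and 25.5%. Over all 32851 windows of the same length they were 37.4%, 17.9% and 1.56%, and over 9305 windows of tested genes 38.4%, 12.1% and 3.28%. CHR letters stood in a larger share of the G2/M windows than of either background, and E2F letters in a larger share of the S-phase windows. Both elements are known from promoters of these gene classes. The windows covered 41 of the 47 G2/M and 46 of the 58 S-phase genes. A match is a string of letters and not a measured site.

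Glycolysis was lower by a difference to which the protein effect contributed. Of 20 tested genes, 14 were called lower and none higher, 70.0% beside 20.6% of all genes called lower. The medians were -1.25 for the difference, -0.36 for the protein effect and 0.72 for the peptide effect. Tpi1, triose-phosphate isomerase, measured 7.31, 7.36 and 7.50 after OVA, 6.57, 6.55 and 6.77 after ERY1-OVA, 5.45 and 5.20 after SIINFEKL, and 6.94, 7.27 and 7.32 after TER119-SIINFEKL. ERY1-OVA did not overlap OVA, and SIINFEKL was at the Naive level (5.35, 5.60 and 5.62). Its difference was -2.61 ± 0.19 (adjusted p = 2.5e-06), and both parts passed the test, with a protein effect of -0.76 (adjusted p = 0.03) and a peptide effect of 1.85 (adjusted p = 2e-06). Both effects were called with opposite signs in 78 of all 9793 genes and in 4 of the 20. Pgam1, phosphoglycerate mutase, was another of them (-1.57 ± 0.13), while Gapdh (-1.55 ± 0.16) and the lactate dehydrogenase gene Ldha (-1.65 ± 0.18) were called in the peptide effect alone. The protein effects of Gapdh and Ldha were -0.43 (adjusted p = 0.072) and -0.44 (adjusted p = 0.083).

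Mitochondrial energy genes had smaller differences. Of 53 subunits of oxidative phosphorylation 26 were called lower and none higher, 49.1% beside 20.6% of all genes called lower. Their median was -0.72, and -0.44 with quantile normalization, -0.47 after correction for length and GC, and -0.43 without the first OVA and TER119-SIINFEKL libraries. The examples with the smallest adjusted p were Atp5b of the ATP synthase (-1.39 ± 0.16), the cytochrome c1 gene Cyc1 (-1.28 ± 0.16), Ndufv1 of complex I (-1.08 ± 0.15) and Cox5a of cytochrome oxidase (-1.29 ± 0.20). Cholesterol synthesis and uptake was mixed, with 9 of 32 genes lower, 1 higher and a median of -0.34. Together that was 31.2% of the list, beside 37.7% of all genes. Cyp51, Fdps and Idi1, enzymes of that pathway, differed by -1.07, -1.10 and -1.39.

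Genes that build ribosomes differed, and genes for the ribosome's own proteins did not pass the test in 74 of 76 cases. Of 38 ribosome biogenesis genes 32 were called lower and none higher, 84.2% beside 20.6% of all genes called lower. The medians were -1.25 for the difference, -0.41 for the protein effect and 0.77 for the peptide effect. Fbl, fibrillarin, the methyltransferase of box C/D particles, measured 7.65, 7.48 and 7.55 after OVA, 6.97, 6.89 and 7.05 after ERY1-OVA, 6.14 and 6.71 after SIINFEKL, and 7.69, 7.54 and 7.67 after TER119-SIINFEKL. The ERY1-OVA and SIINFEKL values lay below Naive (7.32 to 7.36), and the OVA and TER119-SIINFEKL values above it. The difference was -1.80 ± 0.19 (adjusted p = 2.5e-05), with both effects called. Lyar (-2.15 ± 0.22) and Bop1 (-1.22 ± 0.14), both nucleolar proteins, were also called in both effects, and Nop58 (-1.80 ± 0.19) in the peptide effect. Among 76 cytosolic ribosomal proteins, Rps2 was lower (-1.31 ± 0.22) and Rpl24 higher (0.53 ± 0.15), the latter lost with the length and GC correction. The median of the 76 was -0.13, and 0.06 with quantile normalization, 0.11 after correction for length and GC, and 0.30 without the first OVA and TER119-SIINFEKL libraries, so no direction is given for them.

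Amino acid supply and protein quality control followed ribosome biogenesis. Of 30 genes of amino acid transport, tRNA charging and the ATF4 response, 21 were called lower and none higher (median -0.92). That was 70.0%, beside 20.6% of all genes called lower. Shmt1, a serine hydroxymethyltransferase of one-carbon metabolism, measured 3.90, 3.82 and 4.01 after OVA, 3.40, 3.17 and 3.53 after ERY1-OVA, 1.99 and 2.19 after SIINFEKL, and 4.31, 4.50 and 4.63 after TER119-SIINFEKL. TER119-SIINFEKL was the highest group, and SIINFEKL was below all Naive values (2.20 to 2.71). The difference was -2.94 ± 0.22 (adjusted p = 2.5e-06). The mitochondrial Shmt2 (-1.92 ± 0.21), Phgdh of serine synthesis (-1.83 ± 0.20) and the amino acid transporter Slc7a5 (-2.41 ± 0.30) were also called lower. Of 43 proteasome and chaperone genes 33 were lower and none higher (median -0.98), 76.7% beside 20.6% of all genes called lower. These included Psmd1 of the regulatory particle of the proteasome (-1.54 ± 0.14), the disulfide isomerase Pdia6 (-1.78 ± 0.18), the mitochondrial chaperonin Hspd1 (-2.46 ± 0.25) and Hsp90ab1 (-1.64 ± 0.18).

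Of the 4 granzyme genes tested, Gzmk and Gzmb passed the test of the difference, and in Gzmk both effects passed with opposite signs. Gzmk, granzyme K, a serine protease of cytotoxic granules (ENSMUSG00000042385, GRCm38 chr13:113171608-113225908), measured 4.39, 2.89 and 3.13 after OVA and 0.96, 1.76 and 2.25 after ERY1-OVA. It measured -0.73 and -0.31 after SIINFEKL and 1.05, 1.95 and 1.53 after TER119-SIINFEKL. OVA was highest with no overlap, SIINFEKL was at the Naive level (-0.26, -0.23 and -0.36), and both targeted groups lay between and overlapped each other. The protein effect was -1.81 (adjusted p = 0.041), the peptide effect 2.03 (adjusted p = 0.0025) and the difference -3.84 ± 0.57 (adjusted p = 0.00028). Gzmb, granzyme B, measured 5.66, 4.34 and 4.47 after OVA, 2.54, 3.11 and 3.55 after ERY1-OVA, 0.78 and 2.16 after SIINFEKL, and 3.43, 3.19 and 2.66 after TER119-SIINFEKL. The targeted groups overlapped Naive (3.53, 2.77 and 3.21), with OVA above and SIINFEKL below it. Its protein effect was -1.76 (adjusted p = 0.051), its peptide effect 1.63 (adjusted p = 0.012) and its difference -3.39 ± 0.60 (adjusted p = 0.00086). Gzma (-1.98 ± 0.96, adjusted p = 0.12) and Gzmm (-1.92 ± 0.99, adjusted p = 0.14) missed the threshold in the difference. OVA library 1, the highest for both granzymes, was also the library with the highest class II sum. Leaving out each library in turn gave -4.13 to -3.38 for Gzmk and -4.08 to -2.70 for Gzmb.

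Of 20 tested cytotoxic genes 6 were called lower and none higher with the values as deposited, 30.0% beside 20.6% of all genes called lower. Slamf7, a receptor of activated cytotoxic cells (-1.07 ± 0.24), and Serpinb9, an inhibitor that protects killers from granzyme B (-1.38 ± 0.37), were among the 6. Quantile normalization gave 6 higher and 4 lower, and the length and GC correction 4 higher and 5 lower, so the list as a whole has no settled direction.

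Cytokine genes went both ways, with 2 of 16 called higher and 3 lower, together 31.2% beside 37.7% of all genes. Ccl4, the chemokine MIP-1β, measured 3.02, 3.81 and 2.90 after OVA, 3.12, 3.86 and 4.01 after ERY1-OVA, 3.28 and 1.78 after SIINFEKL, and 5.63, 5.47 and 5.64 after TER119-SIINFEKL. TER119-SIINFEKL stood above every other library, and the remaining antigen groups overlapped the Naive range of 2.61 to 3.70. The difference was -2.63 ± 0.56 (adjusted p = 0.0029), from a protein effect of 0.42 and a peptide effect of 3.05. It was -3.38 without SIINFEKL library 1 and -1.88 without library 2. Mif, macrophage migration inhibitory factor, differed by -1.83 ± 0.20. Tnfsf8, the CD30 ligand, went the other way. It measured 2.45, 2.61 and 2.61 after OVA, 3.30, 3.55 and 3.38 after ERY1-OVA, 4.37 and 3.94 after SIINFEKL, and 3.84, 3.58 and 3.54 after TER119-SIINFEKL. OVA was lowest and SIINFEKL highest, and its difference was 1.35 ± 0.22 (adjusted p = 0.00054). Flt3l, the ligand of FLT3, was also higher (1.27 ± 0.29). Ifng, interferon gamma, differed by -1.25 ± 1.17 (adjusted p = 0.42), with a 95% interval of -3.76 to 1.25. Its values spanned 1.76 to 4.98 within the ERY1-OVA group alone, and the difference lay between -2.08 and -0.47 with 1 library left out.

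Of 14 effector transcription factors 3 were called lower and none higher, 21.4% beside the 20.6% of all genes called lower. Irf8 measured 4.32, 4.15 and 4.32 after OVA, 3.89, 3.75 and 3.71 after ERY1-OVA, 1.85 and 2.46 after SIINFEKL, and 3.85, 4.47 and 4.32 after TER119-SIINFEKL. The SIINFEKL values were close to the Naive range of 1.07 to 2.20, and the difference was -2.54 ± 0.37 (adjusted p = 0.00023). Irf4, a factor scaled by receptor signal, differed by -1.43 ± 0.39, a call lost without SIINFEKL library 2. Tbx21, which encodes T-bet, differed by -0.97 ± 0.33 (adjusted p = 0.032). That call was lost in 8 alternatives, including quantile normalization, and the value was -0.62 without SIINFEKL library 2. Batf just missed the threshold (-0.65 ± 0.24, adjusted p = 0.051).

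**Figure D2:**
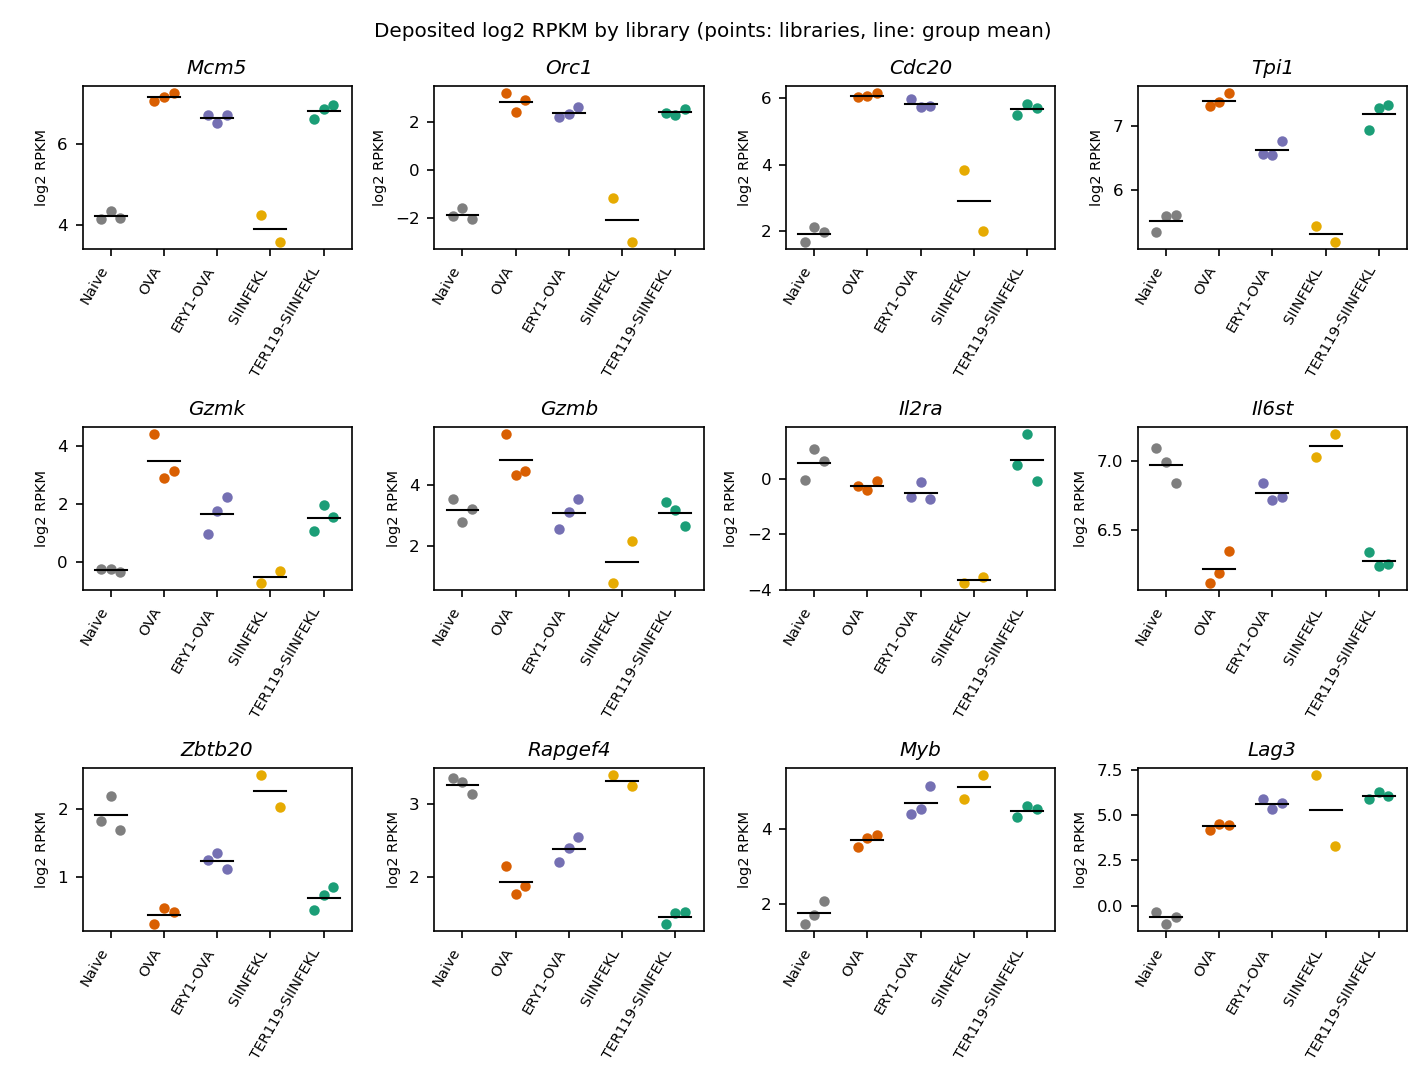
Deposited log2 RPKM of 12 genes by group (points are libraries, 2 for SIINFEKL and 3 for each other group; lines are group means). The SIINFEKL points lie at or below the Naive level in Mcm5, Tpi1, Gzmk and Gzmb, Il2ra falls to -3.76 and -3.55 there, and the SIINFEKL points of Lag3 lie at 7.18 and 3.31, on opposite sides of all 9 other antigen libraries.

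Surface receptors of activation were more often called lower than higher, 9 of 20 against 2, together 55.0% beside 37.7% of all genes. Il2ra, the high-affinity interleukin-2 receptor chain, measured -0.25, -0.39 and -0.05 after OVA, -0.66, -0.09 and -0.72 after ERY1-OVA, -3.76 and -3.55 after SIINFEKL, and 0.50, 1.62 and -0.07 after TER119-SIINFEKL. It was low in every library, including Naive (-0.02, 1.11 and 0.67), and lowest after free peptide. Its mean was 0.86 RPKM after OVA, 0.73 after ERY1-OVA, 1.81 after TER119-SIINFEKL and 0.08 after SIINFEKL. The difference was -4.60 ± 0.60 (adjusted p = 0.00011), and -1.42 with a pseudocount of 1. Tnfrsf9, the costimulatory receptor 4-1BB, measured 4.80, 4.25 and 4.43 after OVA, 4.73, 4.88 and 5.15 after ERY1-OVA, 4.25 and 3.16 after SIINFEKL, and 6.63, 6.06 and 6.23 after TER119-SIINFEKL. TER119-SIINFEKL was again the highest group, and the Tnfrsf9 difference was -2.17 ± 0.41 (adjusted p = 0.0013). Without SIINFEKL library 1 that difference was -2.72, and without library 2 it was -1.63. Tfrc, the transferrin receptor, which dividing T cells and erythroid cells both express, differed by -1.79 ± 0.29. The haemoglobin genes Hba-a1 and Hba-a2 were at 3.18 and 3.49 in TER119-SIINFEKL library 1 and at or below 0.49 in the other libraries of that group, and neither was called. Cd24a differed by -1.88 ± 0.30, and by -1.24 with a pseudocount of 1. Cd69, an early activation marker, differed by -0.01 ± 0.95 (adjusted p = 0.99, 95% interval -2.06 to 2.03), with values from 4.58 to 7.51 within the ERY1-OVA group. The difference lay between -0.81 and 0.65 with 1 library left out.

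Genes of the resting and memory state were called higher in 16 of 30 cases and lower in none, 53.3% beside 17.1% of all genes called higher. The median difference was 0.52, with a protein effect of 0.10 and a peptide effect of -0.58. Il6st, the gp130 signalling chain (ENSMUSG00000021756, GRCm38 chr13:112464070-112510086), measured 6.12, 6.19 and 6.35 after OVA, 6.84, 6.72 and 6.74 after ERY1-OVA, 7.03 and 7.19 after SIINFEKL, and 6.34, 6.24 and 6.26 after TER119-SIINFEKL. OVA and TER119-SIINFEKL were low, ERY1-OVA intermediate and SIINFEKL at the Naive level (7.09, 6.99 and 6.84). The difference was 1.38 ± 0.15 (adjusted p = 3e-05), with a protein effect of 0.55 (adjusted p = 0.03) and a peptide effect of -0.83 (adjusted p = 0.00012). S1pr1, the receptor that lets T cells leave lymphoid organs, measured 6.26, 6.26 and 6.14 after OVA, 6.39, 6.47 and 6.14 after ERY1-OVA, 6.99 and 7.13 after SIINFEKL, and 5.82, 5.78 and 5.60 after TER119-SIINFEKL. OVA and ERY1-OVA overlapped, and the difference of 1.44 ± 0.16 (adjusted p = 4.7e-05) came with a peptide effect of -1.32. Il6ra (1.22 ± 0.17) and the transcription factor gene Klf3 (0.95 ± 0.17) were higher as well.

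Il7r and Tcf7 had weaker support. Il7r, the interleukin-7 receptor chain, differed by 1.03 ± 0.31 (adjusted p = 0.02), a call lost without SIINFEKL library 1. Both its effects pointed down, -0.67 (adjusted p = 0.12) on the protein and -1.70 (adjusted p = 0.00014) on the peptide. Tcf7, the stem-like factor TCF-1, differed by 0.74 ± 0.22 (adjusted p = 0.019), a call lost without SIINFEKL library 2, and by 1.14 with quantile normalization. For the whole list, 12 members were called higher and 5 lower without SIINFEKL library 2, against 14 and 0 without library 1. Trafficking receptors gave 3 higher and 1 lower of 21, together 19.0% beside 37.7% of all genes. Selplg, the P-selectin ligand, was higher by 0.78 ± 0.17. The other 3 had less support: S1pr4 (0.70) fell to 0.45 without SIINFEKL library 1 and lost its call. Itgb1 (-0.91, adjusted p = 0.033) and P2ry10 (0.77, adjusted p = 0.049) each lost theirs in at least 10 alternatives, and Itgb1 was -0.37 without SIINFEKL library 2, -1.45 without library 1 and -0.61 with quantile normalization.

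Type I interferon genes were called higher in 10 of 31 cases and lower in none, 32.3% beside 17.1% of all genes called higher. Of the 31 values, 30 were above 0. The median difference was 0.89, with a protein effect of 0.26 and a peptide effect of -0.58. Stat2, a signal carrier of the interferon receptor, measured 2.68, 2.57 and 2.73 after OVA, 3.35, 2.94 and 3.53 after ERY1-OVA, 3.82 and 3.74 after SIINFEKL, and 2.94, 2.89 and 2.89 after TER119-SIINFEKL. SIINFEKL stood above Naive (2.80 to 3.00), and ERY1-OVA above OVA without overlap. The difference was 1.48 ± 0.21 (adjusted p = 0.00017). Its partner Irf9 (1.19 ± 0.20), the RNA sensor gene Ddx58 (1.00 ± 0.21) and the nucleic acid sensor gene Zbp1 (1.01 ± 0.23) were higher too. The number called moved with single libraries and with processing, from 8 higher and 1 lower without SIINFEKL library 2 to 20 higher without the first OVA and TER119-SIINFEKL libraries, and 16 were higher once gene length and GC were corrected for.

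Checkpoint receptors, the genes most often read as signs of tolerance or exhaustion, mostly did not pass the test in this contrast. Of 13 inhibitory receptors 1 was higher and 2 lower, 23.1% of the list, beside 37.7% of all genes. The count was 2 higher and 5 lower without SIINFEKL library 1, and 4 higher and 1 lower without library 2. Pdcd1, which encodes PD-1, measured 3.53, 3.20 and 3.32 after OVA, 3.85, 4.07 and 4.04 after ERY1-OVA, 4.91 and 1.22 after SIINFEKL, and 5.08, 5.01 and 5.00 after TER119-SIINFEKL. The ERY1-OVA and TER119-SIINFEKL libraries were tight, and the SIINFEKL libraries stood far apart. The difference was -1.33 ± 0.89 (adjusted p = 0.26), with a 95% interval of -3.25 to 0.59 and values of -3.18 without SIINFEKL library 1 (adjusted p = 1.5e-06) and 0.52 without library 2 (adjusted p = 0.12). Ctla4 (1.17 ± 0.64, adjusted p = 0.17, interval -0.20 to 2.55) missed the threshold and was 0.57 without SIINFEKL library 1 and 1.78 without library 2. Tigit (-1.22 ± 0.54, adjusted p = 0.095, interval -2.39 to -0.05) missed it as well. Lair1, a collagen receptor with inhibitory motifs, was lower (-2.12 ± 0.37), and 4632428N05Rik, the gene of VISTA, was higher (0.81 ± 0.17). Cd160 was lower (-1.13, adjusted p = 0.032), a call lost in 10 alternatives, with -0.59 without SIINFEKL library 2.

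Lag3 changed sign with the choice of SIINFEKL library. This ligand of class II molecules measured 4.16, 4.50 and 4.44 after OVA, 5.86, 5.34 and 5.68 after ERY1-OVA, 7.18 and 3.31 after SIINFEKL, and 5.88, 6.29 and 6.03 after TER119-SIINFEKL, against -1.02 to -0.33 in Naive. With both libraries the difference was 0.44 ± 0.95 (adjusted p = 0.74). Without SIINFEKL library 1 it was -1.49 (adjusted p = 0.0036), and without library 2 it was 2.38 (adjusted p = 0.00014). In all, 13 genes were called in both of those fits with opposite signs. They were Cd200, Chn2, Endod1, Fhl2, Gpr55, Il4ra, Lag3, Ptms, Rap1gap2, Slc16a5, Tmem154, Tnfsf11 and Ttc28, found after the values were seen. Cd200, an inhibitory ligand, measured 5.53 and 2.98 after SIINFEKL and 5.50 to 5.68 after TER119-SIINFEKL. Tnfsf11, the RANK ligand, measured 2.88 and -0.12 after SIINFEKL. None of the 13 was called with both libraries.

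Anergy and receptor attenuation genes were called higher in 7 of 22 cases and lower in 3, together 45.5% of the list beside 37.7% of all genes. Egr2, a transcription factor induced by receptor signals and needed for anergy (GRCm38 chr10:67535475-67542188), measured 1.55, 1.58 and 1.39 after OVA, 2.79, 2.88 and 2.55 after ERY1-OVA, 2.79 and 2.67 after SIINFEKL, and 3.67, 3.92 and 3.55 after TER119-SIINFEKL. Targeting raised it for both forms, by 1.23 on the protein (adjusted p = 0.0064) and 0.99 on the peptide (adjusted p = 0.0004). The difference of 0.24 ± 0.21 missed the threshold (adjusted p = 0.4), with a 95% interval of -0.22 to 0.70. Folr4, the folate receptor 4 gene, rose with targeting of the protein (1.43, adjusted p = 0.03), measured 0.70 for the peptide (adjusted p = 0.067), and differed by 0.73 ± 0.38 (adjusted p = 0.15, interval -0.09 to 1.55). That difference was 0.11 without SIINFEKL library 1 (adjusted p = 0.8) and 1.35, past the threshold, without library 2 (adjusted p = 0.0035).

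Other genes of that list did differ. Dgka, diacylglycerol kinase alpha, which dampens receptor signals, was higher by 0.98 ± 0.16, and Ubash3b, a phosphatase of the same pathway, by 1.16 ± 0.25. Ndrg1 was lower by -2.06 ± 0.25. Nr4a3, an orphan nuclear receptor induced by receptor signals, measured 1.91, 2.12 and 2.01 after OVA, 3.18, 2.58 and 2.77 after ERY1-OVA, 2.26 and 1.85 after SIINFEKL, and 3.63, 4.19 and 4.04 after TER119-SIINFEKL. Both targeted groups lay above both soluble groups, with the larger step on the peptide, and the difference was -1.07 ± 0.28 (adjusted p = 0.01). The related Nr4a1 differed by 0.20 ± 0.61 (adjusted p = 0.82, interval -1.12 to 1.52), and lay between -0.25 and 0.58 with 1 library left out. Without SIINFEKL library 1, 3 members of the list were higher and 4 lower.

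Immediate-early genes and feedback regulators of ERK were called in 2 of 29 cases, both higher, 6.9% beside 37.7% of all genes. Btg2, an antiproliferative gene, differed by 0.90 ± 0.24, and Zfp36l1 by 0.70 ± 0.21, the latter lost without SIINFEKL library 1 and without the first OVA and TER119-SIINFEKL libraries. Spry1 (1.63 ± 0.64, adjusted p = 0.059) and Dusp4 (-1.67 ± 0.73, adjusted p = 0.089) missed the threshold with larger values and larger errors. Without SIINFEKL library 2 both passed it, at 2.46 (adjusted p = 0.0064) and -2.35 (adjusted p = 0.032), and without library 1 they were 0.80 and -0.99. The count for the list was 3 higher and 2 lower without SIINFEKL library 2, 1 higher and 2 lower without the first OVA and TER119-SIINFEKL libraries, and 6 higher and 1 lower with the replicate numbers as a block.

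BCL-2 family, caspase and death receptor genes were split between 6 higher and 4 lower of 29, together 34.5% beside 37.7% of all genes. Bcl2l1, the gene of Bcl-xL, measured 3.32, 3.57 and 3.62 after OVA, 3.62, 3.48 and 3.43 after ERY1-OVA, 3.08 and 2.80 after SIINFEKL, and 4.04, 4.48 and 4.19 after TER119-SIINFEKL. OVA and ERY1-OVA overlapped, TER119-SIINFEKL was highest, and the difference of -1.30 ± 0.22 (adjusted p = 0.00065) came with a protein effect of 0.00. Cycs, cytochrome c, was lower (-1.59 ± 0.21). Cflar, the caspase-8 inhibitor c-FLIP (1.00 ± 0.21), was higher, and so was Xiap (0.73 ± 0.18), which was 0.36 and not called with the length and GC correction. Without SIINFEKL library 1 the split was 6 higher and 7 lower.

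Chromatin genes were called in both directions, 10 higher and 11 lower of 31, together 67.7% beside 37.7% of all genes. Those lower included the lamin gene Lmnb1 (-2.68 ± 0.33), the histone methyltransferase gene Suv39h1 (-1.58 ± 0.21) and Hmgb1 (-1.02 ± 0.16). Kmt2a, a histone methyltransferase of active genes, was higher by 1.64 ± 0.25. It measured 3.36, 3.70 and 3.55 after OVA, 4.13, 4.04 and 4.08 after ERY1-OVA, 4.80 and 4.53 after SIINFEKL, and 3.12, 3.84 and 3.76 after TER119-SIINFEKL, with Naive at 4.23 to 4.41.

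**Figure D3:**
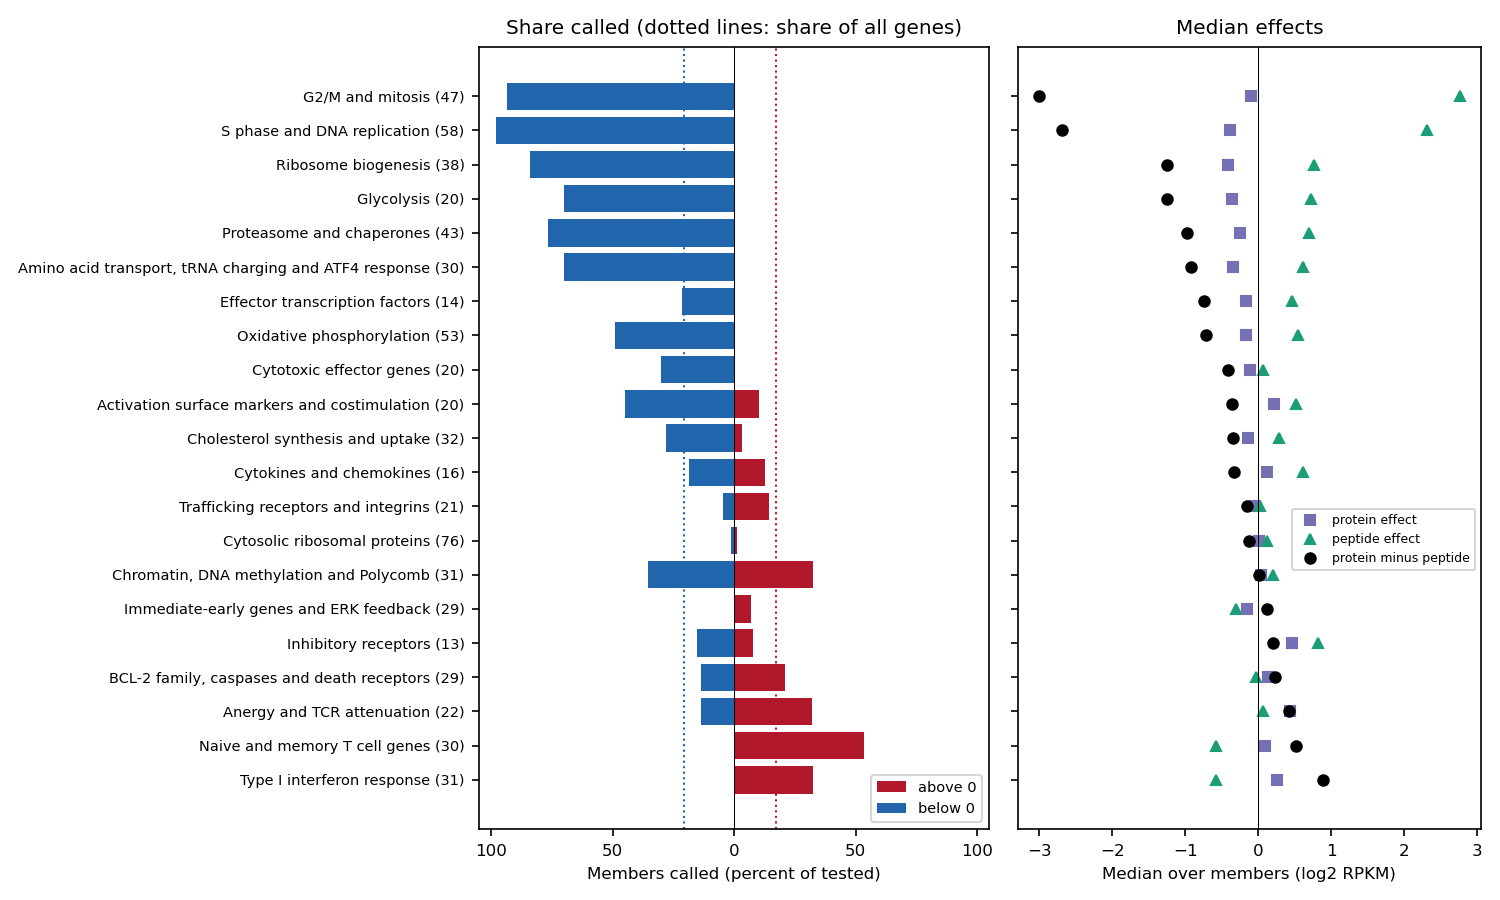
Left, the percentage of tested members of each gene group called above 0 (red) or below 0 (blue), with the number tested in brackets and dotted lines at the shares over all genes (17.1% and 20.6%); right, the median over members of the protein effect, the peptide effect and their difference in log2 RPKM. Cell cycle, ribosome biogenesis, glycolysis and proteasome groups extend to the left, and the interferon and naive groups to the right.

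In 78 genes both effects passed the test with opposite signs, 62 with the protein effect below 0 and the peptide effect above 0, and 16 the reverse. Ahcy, the adenosylhomocysteinase of the methylation cycle, measured 6.48, 6.40 and 6.51 after OVA, 6.02, 5.94 and 6.06 after ERY1-OVA, 4.53 and 4.68 after SIINFEKL, and 6.08, 6.12 and 6.23 after TER119-SIINFEKL. SIINFEKL was below Naive (5.29 to 5.45), and the difference was -2.0 ± 0.13 (adjusted p = 1.8e-06). Gm4737 gave nearly the same values, and since it is a near-identical copy of Ahcy the reads of the pair are uncertain. Smyd2, a lysine methyltransferase, differed by -2.59 ± 0.19 and Umps of pyrimidine synthesis by -2.10 ± 0.16. In the reverse pattern stood Cep97, a centriole protein that restrains cilium formation (1.80 ± 0.17), and Gm14085 (2.09 ± 0.23), besides Il6st and Tnfsf8. Crtam, an adhesion receptor of activated CD8+ T cells, was the 1 gene called in the difference whose effects were both called in the same direction. It measured 5.11, 5.11 and 5.22 after OVA, 5.57, 5.61 and 5.68 after ERY1-OVA, 5.28 and 4.99 after SIINFEKL, and 6.22, 6.13 and 6.14 after TER119-SIINFEKL, so that targeting raised it for both forms and more for the peptide (difference -0.55 ± 0.15).

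Among the genes called in the difference, the protein effect alone was called in 21, of which 20 had a difference above 0. Myb, a transcription factor of lymphoid progenitors and stem-like T cells (GRCm38 chr10:21124935-21160984), measured 3.50, 3.74 and 3.82 after OVA, 4.40, 4.51 and 5.13 after ERY1-OVA, 4.78 and 5.41 after SIINFEKL, and 4.30, 4.60 and 4.52 after TER119-SIINFEKL. It was above Naive (1.47 to 2.08) in every antigen library, and lowest after OVA, with ERY1-OVA overlapping both peptide groups. The difference was 1.62 ± 0.32 (adjusted p = 0.0017), from a protein effect of 0.99 (adjusted p = 0.041) and a peptide effect of -0.62 (adjusted p = 0.054). Ift80, an intraflagellar transport gene, measured 3.65 to 4.14 after OVA and 4.65 to 5.09 in the other 3 antigen groups (difference 1.26 ± 0.19). A530021J07Rik (2.25 ± 0.44), Spata6 (0.86 ± 0.16) and Ipcef1 (0.81 ± 0.16) had the same form. Ccnd3, the D-type cyclin of lymphocytes, was the 1 of these 21 with a difference below 0 (-0.91 ± 0.18).

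The highest values of the contrast belonged to genes without a shared role. Rapgef4, the cAMP-regulated exchange factor EPAC2 (GRCm38 chr2:71981240-72257474), measured 2.15, 1.77 and 1.87 after OVA, 2.21, 2.40 and 2.55 after ERY1-OVA, 3.40 and 3.26 after SIINFEKL, and 1.35, 1.50 and 1.51 after TER119-SIINFEKL. SIINFEKL was at the Naive level (3.14 to 3.36), and the groups did not overlap. The difference was 2.33 ± 0.21 (adjusted p = 7.3e-06). Zbtb20, a zinc finger repressor, measured 0.32, 0.56 and 0.49 after OVA, 1.25, 1.36 and 1.13 after ERY1-OVA, 2.49 and 2.03 after SIINFEKL, and 0.52, 0.74 and 0.86 after TER119-SIINFEKL. The difference was 2.34 ± 0.27 (adjusted p = 5.3e-05), and 1.52 with the length and GC correction. Gabbr1, a GABA-B receptor subunit (2.52 ± 0.47), the transcript Gm10521 (2.73 ± 0.59), Acrbp (2.29 ± 0.52) and the Polycomb-like gene Scml4 (1.52 ± 0.15) were also high. Sema7a, a semaphorin anchored in the membrane, was among the 10 lowest genes (-4.24 ± 0.46, and -1.94 with a pseudocount of 1).

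Several of the highest values rested on few libraries or on low levels. The call of 2010016I18Rik (2.58) was lost without OVA library 3, ERY1-OVA library 3 or SIINFEKL library 1, the last giving 1.69. Phyhd1 (2.53) gave 1.47 and lost its call without SIINFEKL library 1. Tmc4 (2.41) lost its call there too, and was 1.39 with a pseudocount of 1. Chrnb1 (2.43) was 1.25 with that pseudocount. Trip6 (2.28, adjusted p = 0.031) lost its call in 7 alternatives and was 1.37 with a pseudocount of 1.

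**Figure D4:**
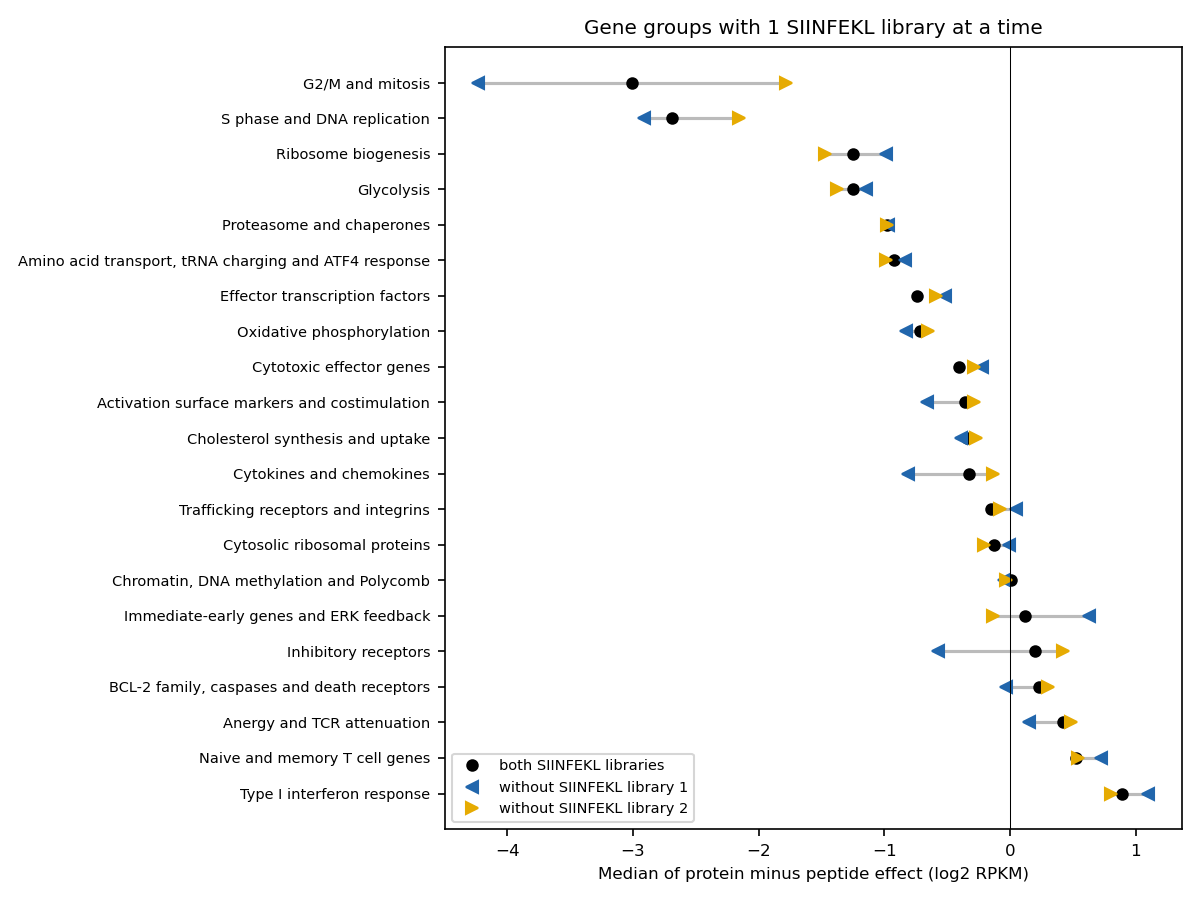
Median difference between protein and peptide effect (log2 RPKM) for each gene group with both SIINFEKL libraries (black) and with 1 of them left out (triangles). The medians of the cell cycle groups stay below 0 in either case, from -4.23 to -1.78 for G2/M, whereas those of inhibitory receptors (-0.57 and 0.42) and immediate-early genes (0.63 and -0.14) change sign.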

How the data were processed

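Polyadenylated RNA of sorted OTI CD8+ T cells was read from stranded mRNA libraries, per the labels' protocols. The authors deposited normalized values per gene for 14 libraries on a logarithmic RPKM scale, read here as log2, with 4.3% of values below 0. Tools listed in the submitters' processing notes are STAR 2.4.2, bcl2fastq 2.17.1.14 and edgeR, with the builds GRCm38 and mm10. The counter, gene lengths, filter, prior count and log base are not given in the sources used here. With base 2, each library's sum of RPKM times exon kilobases was 1762172 to 2041287, and with base e it was 22635900 to 37604317. Both ranges lie above what the unit allows, base e by far more. Base 2 was taken as the nearer choice and stays uncertain. Depth is unknown, so no counting interval is given.

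Genes with a mean of at least 1 RPKM were kept (9793 of 10106). A linear model of 5 group means over all 14 libraries was fitted in R 4.3.3 with limma 3.58.1. Its variances followed a trend on mean level (9 residual degrees of freedom, 4.6 prior). All groups shared 1 spread per gene. Errors, p-values and intervals can therefore be too narrow where the 2 SIINFEKL libraries disagree. The contrast was the protein effect minus the peptide effect, and Benjamini-Hochberg adjusted p under 0.05, two-sided, over all tested genes was called. The protein effect and the peptide effect each had their own adjustment. Intervals are 95% intervals of limma. Named genes were those with the 10 highest and 10 lowest differences and the 5 smallest adjusted p of each sign among called genes reaching 2 RPKM in an antigen group and keeping their sign without any 1 of 11 libraries, up to 4 members per list, 16 core T cell genes, and up to 6 genes each with opposite effects or with the protein effect alone. Members, lists and the rule were chosen with earlier results of these data known, so no list was tested as a set. Some named genes are not reported here. Positions are from GENCODE for GRCm38 (10027 genes matched) and promoters from RefSeq.

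The alternatives tried were median-of-ratios rescaling, quantile normalization, pseudocounts of 0.1 and 1, no filter or one at 3 RPKM, no trend, robust moderation, array weights, only the 4 antigen groups, a replicate block, a length and GC correction (9716 genes), a 2-fold requirement, leaving out each library, and leaving out the first OVA and TER119-SIINFEKL libraries together. A single remaining SIINFEKL library was taken to have the spread of the other groups. The fit was tested on simulated data for this contrast over 9793 genes. Recovered were 2% of genes changed by log2 0.5, 44% by 1, 92% by 2 and 98% by 3, and 12 unchanged genes were called. The simulation gave every group the same spread per gene and placed the changes in ERY1-OVA. These shares therefore do not cover the wider spread of the 2 SIINFEKL libraries. Python 3.11.15 with numpy 2.4.6, pandas 2.3.3 and matplotlib 3.10.9 made tables and figures.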

Additional observations from a re-analysis of the deposited data

Results flagged for a closer look

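The effect of targeting differed between protein and peptide by the test of the difference itself in 3694 genes, and in 78 of these the effects on protein and on peptide were each called and ran in opposite directions. Among the genes named, those with such opposite effects and a difference below 0 were Gm4737 (-2.0), Ahcy (-2.0), Gzmk (-3.84), Tpi1 (-2.61), Pgam1 (-1.57), Cyc1 (-1.28), Lyar (-2.15), Fbl (-1.80), Bop1 (-1.22), Shmt2 (-1.92), Pdia6 (-1.78), Hspd1 (-2.46), Smyd2 (-2.59), Umps (-2.10) and Nasp (-2.24). Those with a difference above 0 were Cep97 (1.80), Il6st (1.38), Gm14085 (2.09) and Tnfsf8 (1.35). Values are log2 differences with limma. No group held enough libraries for a test of single outlying values.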

How the results depend on the processing

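The number of called genes (3694) lay between 2919 with array weights per group and 3935 after correction for length and GC. With 1 library left out it was 3134 to 3593. A 2-fold requirement left 1740 genes, 654 higher and 1086 lower. With the values as deposited 45.4% of called genes were higher, and 52.7% with quantile normalization. With a replicate block the contrast called 3608 genes, 1648 higher and 1960 lower, close to the count without it. The labels give no shared animal, litter or day to a number, and the deviations of 26 same-numbered pairs of libraries correlated between -0.443 and 0.665 (median 0.126, above 0.1 in 14), against -0.543 to 0.573 in 52 pairs of other numbers (median -0.085, above 0.1 in 15). Same-numbered pairs thus correlated somewhat more, but not in every pair, and the numbers were not taken as pairing. Without SIINFEKL library 1 and without library 2, 3215 and 3399 genes were called, and 2329 genes were called with both and without either. Lag3 was -1.49 without SIINFEKL library 1 and 2.38 without library 2, and 12 other genes were likewise called with opposite signs in those fits, Cd200 among them (-1.09 and 1.46). Pdcd1, not called with both libraries, was -3.18 and 0.52. With the length and GC correction, 5 called genes changed sign without passing the test: Cux1, Dmxl1, Phip, Rabgap1l and Zfp280d. The causes were not tested. The SIINFEKL group has 2 libraries, so every value of the contrast rests on their mean, and in the simulated data changes of log2 0.5 were mostly missed (2% recovered).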

Other observations

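Gene families picked by the start of their symbol, after the values were seen, showed further groups. Over all genes, 17.1% were called higher and 20.6% lower. All 10 tubulin genes tested (symbols starting Tuba or Tubb) were called lower, with a median difference of -2.23, and their reads may be shared among near-identical members. Tubb3 had the largest protein effect of them (-1.78) and the lowest difference (-3.11 ± 0.52). Of 77 mitochondrial ribosomal proteins 49 were called lower and none higher (median -0.79). Of 19 nucleoporin genes 13 were lower and none higher (median -1.10), and of 23 Lsm and Snrp genes of the splicing machinery 14 and none (median -1.02).

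The zinc finger genes with symbols starting Zfp went the other way. Of 248 tested, 101 were called higher and 2 lower, beside 17.1% and 20.6% of all genes, with a median of 0.67. Both SIINFEKL libraries lay above the 9 other antigen libraries in 85 of the 248, beside 17% of all genes. Of 8 Gimap genes, GTPases of lymphocytes, 4 were higher and none lower. Gimap8 was the highest of them (1.12 ± 0.15, adjusted p = 0.00012 with limma), and Gimap3 differed by 0.84 ± 0.14.

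Zbtb7b, the factor that directs the CD4 lineage, measured 3.31 log2 RPKM in SIINFEKL library 1 and -0.39 to 0.56 in the 13 other libraries. Its difference of 1.53 did not pass the test (adjusted p = 0.2), and Cd4 was at 0.02 in that library. Eomes measured 3.61 in SIINFEKL library 1 and 5.65 in library 2, below and above the 9 other antigen libraries.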
